A study of Mus musculus with 16 samples.

Results

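The genes described here encode the polypeptides of the MHC class II molecule and the chaperone that travels with it, 5 of the 48593 genes in the table. They were taken by name: H2-Aa and H2-Ab1, the alpha and beta chains of the A molecule, H2-Eb1, the beta chain of the E molecule, H2-Eb2, a further beta chain gene of the E region, and Cd74, the invariant chain. Total RNA of germinal centre B cells (B220+, PNA+, CD95+) was sequenced after sorting from spleens of mice given sheep red blood cells. The knockout cohort comprised 3 Crebbp knockout libraries (KO) and 3 wild type libraries (KO cohort WT). The knock-in cohort comprised 3 libraries homozygous (RH HOMO) and 4 heterozygous (RH HET) for an arginine-to-histidine allele of Crebbp, spelled R14467H in the series' title, and 3 wild type libraries (RH cohort WT). Both alleles are conditional and restricted to the germinal centre per the series' title, and the labels name neither the Cre that drives them nor the ages of the mice. Every mouse was immunised, with 12 days to collection in the protocol and 10 in a tag.

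MHC class II molecules are pairs of an alpha and a beta chain that carry peptides from endocytosed antigen to the cell surface, where CD4 T cells read them. The invariant chain fills the peptide groove after synthesis, guides the pair to endosomes and is cut away there before H2-DM places a peptide. Germinal centre B cells compete for T cell help through this display. The genes share a promoter module of X1, X2 and Y boxes, bound by the RFX complex, by CREB and by NF-Y, on which the coactivator CIITA assembles, and CIITA in turn recruits acetyltransferases of the Crebbp family.

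H2-Ab1 (chromosome 17, 34257689 to 34269419, plus strand), H2-Aa (34282744 to 34287823, minus strand), H2-Eb1 (34305867 to 34316674, plus strand) and H2-Eb2 (34325665 to 34341412, plus strand) lie next to each other in the GENCODE M21 annotation of GRCm38, and Cd74 lies on another chromosome. The RefSeq table of promoter windows on GRCm38.p6, 250 bases before to 50 after each start, held H2-Aa, H2-Eb1 and H2-Eb2. They are shown because these neighbours were all lower in KO libraries, and the capitals mark each match, on either strand, to GCAAC (the core of the X1 box), TGACG (X2) or ATTGG (Y), 5′ to 3′ along the gene.
H2-Aa, chr17:34287774-34288073, minus strand: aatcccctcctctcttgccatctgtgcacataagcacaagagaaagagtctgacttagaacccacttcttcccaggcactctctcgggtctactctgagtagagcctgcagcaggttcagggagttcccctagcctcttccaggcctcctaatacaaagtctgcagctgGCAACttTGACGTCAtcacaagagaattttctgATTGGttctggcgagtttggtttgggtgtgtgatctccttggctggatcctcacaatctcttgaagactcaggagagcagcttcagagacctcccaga
H2-Eb1, chr17:34305617-34305916, plus strand: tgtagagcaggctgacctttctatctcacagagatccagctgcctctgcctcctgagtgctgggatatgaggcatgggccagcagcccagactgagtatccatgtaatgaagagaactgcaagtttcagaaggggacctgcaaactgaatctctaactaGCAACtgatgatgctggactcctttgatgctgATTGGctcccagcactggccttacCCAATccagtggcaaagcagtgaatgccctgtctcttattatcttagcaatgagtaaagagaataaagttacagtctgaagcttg
H2-Eb2, chr17:34325425-34325724, plus strand: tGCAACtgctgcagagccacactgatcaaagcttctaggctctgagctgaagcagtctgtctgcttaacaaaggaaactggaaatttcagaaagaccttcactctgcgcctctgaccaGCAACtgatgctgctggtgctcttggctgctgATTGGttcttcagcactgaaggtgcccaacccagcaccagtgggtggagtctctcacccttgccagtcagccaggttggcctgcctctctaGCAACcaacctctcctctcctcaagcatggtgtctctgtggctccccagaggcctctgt
All 3 windows held an X1 core followed by a Y core with 32 or 33 bases between their first letters. In H2-Aa the pair began at -81 and -48 from the start, in H2-Eb1 at -91 and -59, and in H2-Eb2 at -132 and -100. H2-Aa alone of the 3 also held TGACG, at -74 on the plus strand and overlapping it at -71 on the minus strand. Across 32817 windows in the table, 35.2% held the X1 core, 20.8% the X2 core and 37.4% the Y core. An X1 core followed by a Y core within 40 bases stood in 1.56% of windows, a spacing that was set after the sequences had been read, so its presence in the 3 windows is a description. Among the peptide loading genes it stood in H2-Oa and H2-Ob, 2 of 5. In the processing and transcription lists used below it stood in 0 of 5 and 0 of 6 genes with a window. Of the cell type markers with a window, Sdc1 held it, at -114 and -82, as 1 of 5 for plasma cells, and 0 for the other cell types did.

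**Figure D1:**
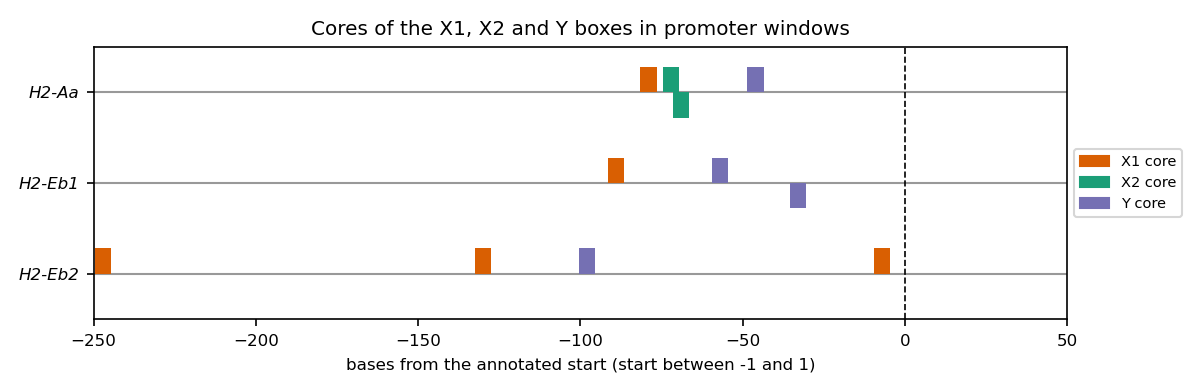
Matches to the X1, X2 and Y cores in the RefSeq promoter windows of H2-Aa, H2-Eb1 and H2-Eb2, against distance in bases from the annotated start, with plus strand matches above each line and minus strand matches below. The X1 core and the Y core downstream of it are 32 or 33 bases apart in each gene.

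Libraries held 41362856 to 93040297 counted reads, and the 5 genes together took 0.800% to 1.44% of them, so even the scarcest, H2-Eb2, rested on 4642 to 16502 reads a library. The germinal centre identity of the sort was visible in its markers: the group means of Bcl6, the regulator of that identity, lay between 427 and 530 CPM, the usual unit of counts scaled by library size. Crebbp itself did not tell knockout from wild type, with 123, 137 and 108 CPM in KO libraries, against 131, 127 and 149 CPM in KO cohort WT libraries, and a count over the whole gene does not show the loss of part of it. The library RH cohort WT 1 is tagged with the knockout cohort, against its title, which was followed here. That library and RH HOMO 2 stood apart from the others on the first principal component (50.7 and 77.1, others at most 24.3), and RH HOMO 2 had the largest ribosomal protein share (8.60%, against 3.63% at the lowest). The labels do not say that libraries came from different mice, so p values measure the spread between libraries.

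In KO libraries the A and E chains were scarcer. H2-Aa stood at 979.2, 1140.8 and 1014.2 CPM in KO libraries, against 1497.8, 1645.2 and 1647.8 CPM in KO cohort WT libraries. H2-Eb1 stood at 999.2, 1159.5 and 1007.8 CPM in KO libraries, against 1354.9, 1495.0 and 1629.3 CPM in KO cohort WT libraries. For both genes the groups did not overlap, and the 3 KO libraries were the lowest of all 16. H2-Aa fell by 0.61 ± 0.11 on the log2 scale (SE, edgeR's quasi-likelihood test, adjusted p = 0.0108), with a 95% interval of -0.84 to -0.38. H2-Eb1 fell by 0.50 ± 0.11 (adjusted p = 0.0260, edgeR), with an interval of -0.73 to -0.28. In bulk RNA, fewer class II positive cells and less class II mRNA per cell cannot be told apart.

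The remaining beta chains were lower in every KO library without passing the threshold of 0.05. H2-Ab1, the partner of H2-Aa, stood at 1284.8, 1458.2 and 1290.1 CPM in KO libraries, against 1561.6, 1796.4 and 1816.0 CPM in KO cohort WT libraries. H2-Eb2 stood at 103.3, 112.0 and 102.4 CPM in KO libraries, against 150.3, 174.4 and 151.1 CPM in KO cohort WT libraries. The highest KO library thus stayed below the lowest wild type library in both. The fitted differences were -0.36 ± 0.12 for H2-Ab1 (SE, edgeR's adjusted p = 0.171) and -0.58 ± 0.16 for H2-Eb2 (adjusted p = 0.0897), so that the estimate for H2-Eb2 was close to that of H2-Aa but with a wider interval, -0.92 to -0.25.

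Cd74, the most abundant of the 5 mRNAs, was the exception to this separation. It stood at 4153.3, 5704.6 and 4570.0 CPM in KO libraries, against 5415.4, 6144.8 and 6743.0 CPM in KO cohort WT libraries. KO 2 lay above the lowest wild type library, and the difference of -0.34 ± 0.14 did not pass the test (SE, edgeR's adjusted p = 0.298, interval -0.63 to -0.05). In all, 2 of the 5 genes were called lower, where 0.729% of the 16606 tested genes were, and 4 of 5 had every KO library below every wild type library, where 12.7% of genes did. Their median log2 difference was -0.50, beside -0.00 over all tested genes. DESeq2 and limma-voom each called 4 of the 5, adding H2-Ab1 and H2-Eb2. H2-Eb2 was also called by edgeR with no count filter (adjusted p = 0.0143), in a fit of the compared libraries alone (adjusted p = 0.00305) and with RH cohort WT 1 and RH HOMO 2 left out (adjusted p = 0.0244). With edgeR the count of calls was 0 once KO cohort WT 2, KO cohort WT 3, KO 1 or KO 3 was left out, where H2-Aa was at -0.56 to -0.59 with an adjusted p of at most 0.0704, and H2-Eb1 at -0.43 to -0.48 with an adjusted p of 0.107 to 0.134.

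**Figure D2:**
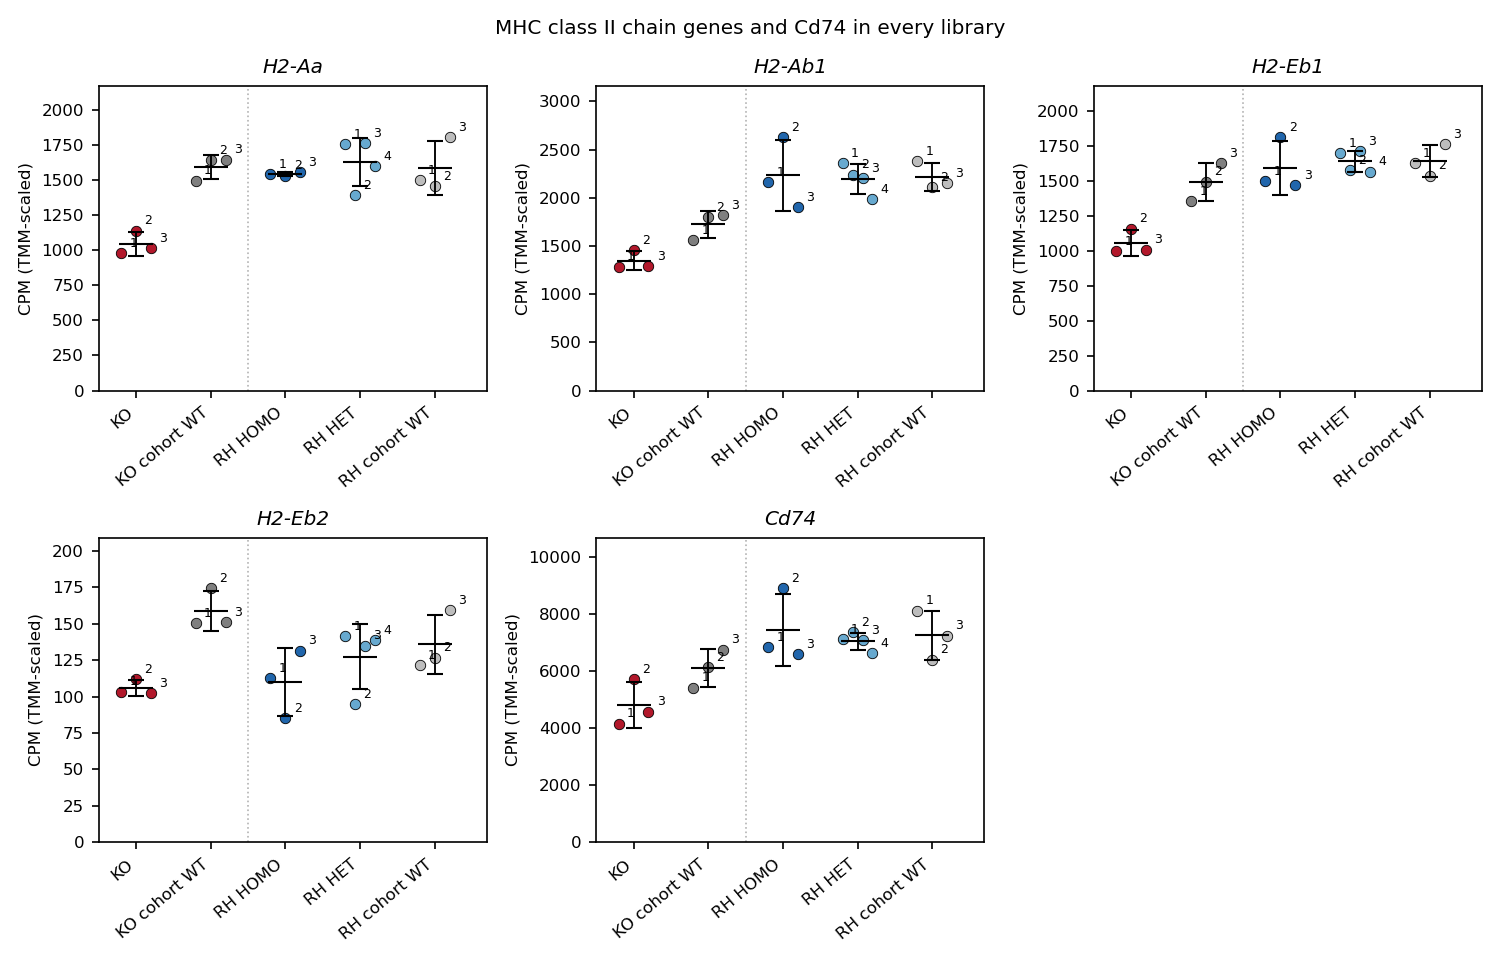
CPM on TMM-scaled library sizes (y axis, from 0) of the 5 genes in each of 16 libraries, by group (x axis), with replicate numbers beside the points and bars for mean ± SD. The KO libraries lie below every KO cohort WT library for H2-Aa, H2-Ab1, H2-Eb1 and H2-Eb2 but not for Cd74, and the RH groups overlap throughout.

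Neither zygosity of the RH allele moved the class II chains by a detectable amount. H2-Aa stood at 1542.8, 1532.0 and 1559.3 CPM in RH HOMO libraries and at 1756.2, 1396.2, 1765.5 and 1599.6 CPM in RH HET libraries, against 1500.9, 1455.6 and 1810.1 CPM in RH cohort WT libraries. H2-Eb1 stood at 1497.2, 1816.4 and 1470.1 CPM in RH HOMO libraries and at 1696.9, 1579.8, 1715.7 and 1567.2 CPM in RH HET libraries, against 1625.3, 1539.0 and 1762.4 CPM in RH cohort WT libraries. The groups overlapped for both genes, and the RH HOMO libraries agreed closely for H2-Aa (coefficient of variation 0.892%) while spreading over 12.1% for H2-Eb1. That agreement depended on the scaling. With CPM on the total count the RH HOMO libraries lay further apart for H2-Aa, at 1532.1, 1478.7 and 1583.7. The differences of H2-Aa were -0.04 ± 0.11 in RH HOMO (interval -0.27 to 0.19) and 0.04 ± 0.10 in RH HET (interval -0.18 to 0.25), so the size of the KO difference of H2-Aa lay outside both intervals. The error of the KO estimate is not counted there, and the direct comparison of effects, given below, did not pass by edgeR. For H2-Eb1 the differences were -0.04 ± 0.11 in RH HOMO (interval -0.27 to 0.18) and -0.00 ± 0.10 in RH HET (interval -0.21 to 0.21).

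H2-Ab1 and Cd74 overlapped between the groups as well. H2-Ab1 stood at 2163.3, 2632.8 and 1902.8 CPM in RH HOMO libraries and at 2356.8, 2239.4, 2200.5 and 1986.9 CPM in RH HET libraries, against 2382.5, 2110.8 and 2150.4 CPM in RH cohort WT libraries. Cd74 stood at 6834.9, 8897.6 and 6588.4 CPM in RH HOMO libraries and at 7105.9, 7362.0, 7066.2 and 6623.3 CPM in RH HET libraries, against 8117.2, 6397.7 and 7233.0 CPM in RH cohort WT libraries. For both genes the highest of all 16 libraries was RH HOMO 2, one of the pair that stood apart, and the next highest was the other, RH cohort WT 1. With all libraries, RH HOMO minus RH cohort WT was 0.01 ± 0.12 for H2-Ab1 and 0.04 ± 0.14 for Cd74, and without the pair -0.07 and -0.02. RH HET minus RH cohort WT was -0.01 ± 0.11 for H2-Ab1 and -0.04 ± 0.13 for Cd74, and without the pair 0.05 for each.

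H2-Eb2 leaned lower in the homozygous libraries but did not separate. It stood at 112.6, 85.1 and 131.6 CPM in RH HOMO libraries and at 141.5, 94.7, 135.0 and 138.9 CPM in RH HET libraries, against 121.6, 126.8 and 159.3 CPM in RH cohort WT libraries. The lowest of all 16 libraries was again RH HOMO 2, so that within that library H2-Eb2 was low where H2-Ab1 and Cd74 were high. The difference was -0.31 ± 0.16 in RH HOMO (SE, edgeR's adjusted p = 0.443), -0.16 without RH HOMO 2, -0.47 without RH HOMO 3 (adjusted p = 0.168), and -0.09 ± 0.15 in RH HET. Unlike for H2-Aa, the KO difference of H2-Eb2, -0.58, lay within 2 SE of the RH HOMO estimate.

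By edgeR 0 of the 5 genes were called in RH HET or RH HOMO against wild type, where 0.0181% and 1.57% of all genes were, or between RH HOMO and RH HET, where 0% were, and 0 of the 5 had an unadjusted p under 0.05. DESeq2 and limma-voom also called 0. All 5 genes had overlapping groups in these comparisons, while 6.49% of all genes had none in RH HET, 15.4% in RH HOMO and 8.06% between RH HOMO and RH HET. The RH effect minus the KO effect, which compares genotypes through their own wild types, was 0.57 ± 0.15 for H2-Aa with RH HOMO (edgeR's unadjusted p = 0.00176, adjusted p = 0.160) and 0.65 ± 0.15 with RH HET (adjusted p = 0.148). For H2-Eb1 it was 0.46 ± 0.15 (adjusted p = 0.270) and 0.50 ± 0.15 (adjusted p = 0.266). By edgeR 0 of 5 genes passed with RH HOMO, where 0.241% of all genes did, and 0 of 5 with RH HET, where 0.12% did. At an unadjusted p under 0.05 there were 3 of 5 with RH HOMO, beside 1583 of the 16606 genes, and 4 of 5 with RH HET, beside 1428. With RH HOMO, DESeq2 called 1 of the 5 higher, beside 109 of all genes, and limma-voom 2, beside 315. With RH HET, DESeq2 called 2 higher, beside 70 of all genes, and limma-voom 3, beside 342. H2-Aa was among them each time, so whether the knockout and RH effects on these genes differ depended on the tool.

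**Figure D3:**
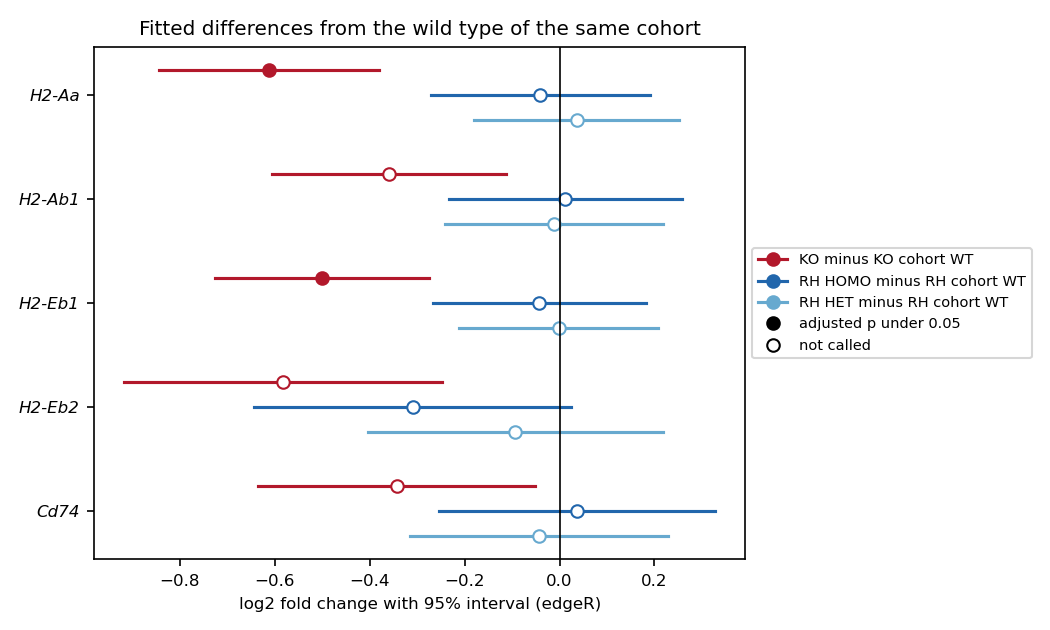
Log2 fold changes with 95% intervals (x axis) of the 5 genes (y axis) in KO, RH HOMO and RH HET against the wild type of the same cohort, filled where edgeR's adjusted p was under 0.05. H2-Aa and H2-Eb1 are filled in KO, and the intervals of both RH comparisons include 0 for each gene.

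The wild type libraries of the cohorts overlapped for every gene but H2-Ab1, at most 1816 CPM in KO cohort WT and at least 2111 CPM in RH cohort WT. That separation follows the title of RH cohort WT 1. Its tag would place this library, at 2382.5 CPM, in the knockout cohort, and H2-Ab1 would then overlap too. The share of all genes without overlap was not computed for the wild type groups. The cohorts were not set against each other in a test because cohort and wild type group cannot be told apart. H2-Ab1 averaged 1344 ± 98.6 CPM in KO, 1725 ± 142 in KO cohort WT, 2233 ± 370 in RH HOMO, 2196 ± 154 in RH HET and 2215 ± 147 in RH cohort WT (SD, n = 3, 3, 3, 4 and 3). Cd74 averaged 4809 ± 803 CPM in KO, 6101 ± 665 in KO cohort WT, 7440 ± 1268 in RH HOMO, 7039 ± 307 in RH HET and 7249 ± 860 in RH cohort WT. Both genes thus ordered as the RH groups, KO cohort WT and KO, and the RH groups did not differ beyond their spread. H2-Aa averaged 1045 ± 85.0 CPM in KO, below 1597 ± 85.9 in KO cohort WT, 1545 ± 13.8 in RH HOMO, 1629 ± 173 in RH HET and 1589 ± 193 in RH cohort WT, which did not differ beyond their spread. H2-Eb1 was likewise lowest in KO, with 1055 ± 90.2 CPM, and its other 4 means lay between 1493 in KO cohort WT and 1642 in RH cohort WT. H2-Eb2 differed from the rest, with 106 ± 5.28 CPM in KO and 110 ± 23.4 in RH HOMO as neighbours at the bottom, 128 ± 22.0 in RH HET and 136 ± 20.4 in RH cohort WT between, and 159 ± 13.7 in KO cohort WT at the top.

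Scaled to the union of annotated exons, the invariant chain exceeded each chain in every group. Cd74 had 2864 ± 478 CPM per kb in KO and 3634 ± 396 in KO cohort WT, and H2-Eb2 had 31.2 ± 1.56 in KO and 46.8 ± 4.04 in KO cohort WT. Between these ends lay H2-Eb1, with 543 ± 46.4 in KO and 768 ± 70.6 in KO cohort WT, and H2-Ab1, with 524 ± 38.4 in KO and 672 ± 55.1 in KO cohort WT, as neighbours within their spread on this length. H2-Aa followed with 275 ± 22.4 in KO and 420 ± 22.6 in KO cohort WT. The order of these 3 chains depended on the length used. On the principal transcript H2-Ab1 had 1109 ± 81.3 CPM per kb in KO and 1423 ± 117 in KO cohort WT, and H2-Aa had 926 ± 75.4 CPM per kb in KO and 1416 ± 76.1 in KO cohort WT, both above H2-Eb1, with 632 ± 54.0 in KO and 895 ± 82.2 in KO cohort WT. H2-Ea-ps, the pseudogene that the annotation lists for the alpha chain of the E molecule, held 0 to 60 reads a library, or 0 to 0.821 CPM, so hardly any mRNA of a partner for H2-Eb1 was counted.

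Within a library, H2-Aa was lower relative to H2-Ab1 in KO. The ratio of H2-Aa to H2-Ab1 per kb was 0.515, 0.529 and 0.532 in KO libraries, against 0.649, 0.619 and 0.614 in KO cohort WT libraries, a log2 difference of -0.26. The ratio of H2-Eb1 to H2-Ab1 was 1.03, 1.05 and 1.03 in KO libraries, against 1.15, 1.10 and 1.19 in KO cohort WT libraries, a log2 difference of -0.14. Neither ratio overlapped between the groups, and each reached 0.1 in an exact two-sided permutation test, the smallest p that 3 against 3 libraries can give (0.45 adjusted over 9 comparisons). On principal transcripts the ratio of H2-Eb1 to H2-Ab1 was 0.565, 0.577 and 0.567 in KO libraries, against 0.630, 0.604 and 0.652 in KO cohort WT libraries, so which of the pair is more abundant turned with the length while the log2 difference stayed at -0.14. A ratio shows unequal amounts and not which of its genes changed. Cd74 relative to the 4 chain genes was 1.90, 2.27 and 2.07 in KO libraries, against 1.85, 1.87 and 1.98 in KO cohort WT libraries, which overlapped (exact permutation p = 0.2). In the RH cohort the H2-Aa ratio was 0.482, 0.393 and 0.554 in RH HOMO and 0.504, 0.422, 0.542 and 0.544 in RH HET, against 0.426, 0.466 and 0.569 in RH cohort WT, and no RH ratio gave an exact permutation p below 0.5.

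**Figure D4:**
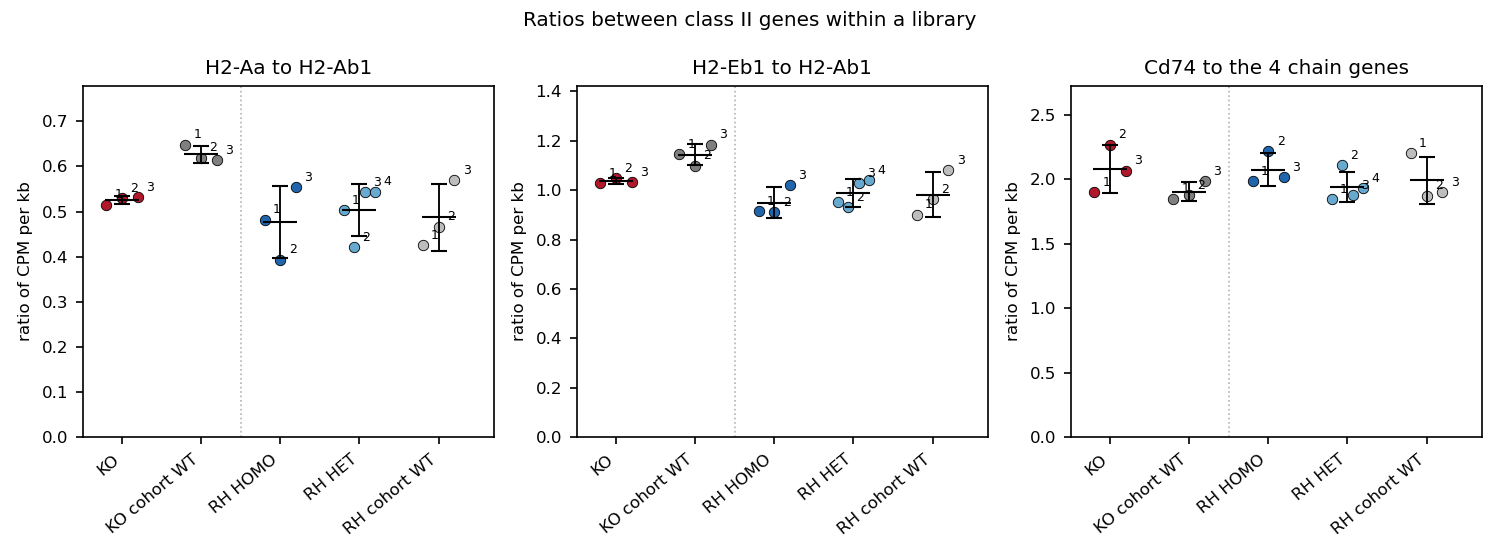
Ratios of CPM per kb within each library (y axis, from 0) by group (x axis), with replicate numbers and mean ± SD bars: H2-Aa to H2-Ab1, H2-Eb1 to H2-Ab1 and Cd74 to the sum of the 4 chain genes. The KO libraries lie below every KO cohort WT library in the first pair of panels and overlap them in the panel of Cd74.

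Over the 16 libraries H2-Eb2 varied with H2-Aa but not with H2-Ab1 or Cd74. Among the other 4 genes, Pearson's r of log2 CPM lay between 0.75 (H2-Aa with Cd74) and 0.95 (H2-Ab1 with Cd74), and H2-Aa with H2-Eb1 reached 0.92. H2-Eb2 had r near 0 with H2-Ab1 (0.00) and Cd74 (0.01), 0.29 with H2-Eb1 and 0.60 with H2-Aa. By Spearman's rank correlation H2-Aa had 0.73 with H2-Eb2, 0.70 with H2-Eb1, 0.48 with Cd74 and 0.42 with H2-Ab1. Once group means were removed, Pearson's r of H2-Aa was 0.71 with H2-Eb2, 0.62 with H2-Eb1, 0.29 with Cd74 and 0.20 with H2-Ab1. H2-Ab1 and Cd74 then kept 0.87, while H2-Eb2 had -0.45 with H2-Ab1, -0.36 with Cd74 and -0.07 with H2-Eb1. These r values describe libraries that share a scaling factor and 2 cohorts. With the 5 genes themselves left out, among the 7313 genes whose mean log2 CPM reached 4 the 5 most like H2-Aa were H2-DMa (0.96), H2-Oa (0.94), Herpud1 (0.91), Cxxc5 (0.91) and Nrm (0.90), of which H2-DMa, H2-Oa and Nrm also lie on chromosome 17. The 5 most like Cd74 were Grap (0.94), Ptms (0.94), Ncf4 (0.94), Tpt1 (0.93) and Fth1 (0.93). Group means were not removed for these rankings, so differences between groups enter them. The share of the 7313 genes on chromosome 17 was not computed.

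Of the 5 genes that load and edit peptides, 3 fell in KO, where 0.729% of all genes did. H2-DMa, a chain of the loading catalyst, averaged 178 ± 19.6 CPM in KO and 247 ± 17.5 in KO cohort WT, a fall by 0.47 ± 0.10 on the log2 scale (SE, edgeR's adjusted p = 0.0209). H2-DMb2, its partner, fell by 0.47 ± 0.09 (adjusted p = 0.0186), and H2-Oa, a chain of the inhibitor of that catalyst, by 0.58 ± 0.12 (adjusted p = 0.0218). H2-DMb1 was at -0.35 ± 0.19 and H2-Ob at -0.11 ± 0.10, and reads may be split between the near-identical H2-DMb1 and H2-DMb2. Of 6 processing genes 1 fell, Lgmn, an endosomal protease that also cuts the invariant chain, with 160 ± 10.5 CPM in KO and 236 ± 14.5 in KO cohort WT (-0.56 ± 0.09, edgeR's adjusted p = 0.00632).

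Of 8 regulators of class II transcription 0 passed in KO by edgeR, and 1 had an unadjusted p under 0.05, beside 2012 of the 16606 genes. It was Nfyc, a subunit of NF-Y, at 0.22 ± 0.09. Ciita, the master coactivator, had 495, 506 and 481 CPM in KO libraries, against 492, 591 and 567 CPM in KO cohort WT libraries, and its difference was -0.16 ± 0.13 (SE, edgeR's adjusted p = 0.724). KO and wild type overlapped for Ciita. Creb1, which encodes the CREB factor of the X2 box and was chosen after its values were seen, had 165, 161 and 156 CPM in KO libraries, against 173, 175 and 187 CPM in KO cohort WT libraries. Every KO library was lower, as for 12.7% of all genes, and the test was not passed (-0.15 ± 0.14, edgeR's adjusted p = 0.751). Of 3 turnover genes 0 passed by edgeR and 0 had an unadjusted p under 0.05, the ubiquitin ligase gene March8 coming nearest at 0.44 ± 0.22 (adjusted p = 0.453). The count of 4 pathway genes called lower became 0 without KO 1, and 1 when KO cohort WT 2, KO cohort WT 3 or KO 3 was the library left out.

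In RH HOMO, where 0 of the 5 chain and invariant chain genes was called, 2 of 6 processing genes were called higher, beside 0.578% of all genes. Of the 6, 4 had an unadjusted p under 0.05 by edgeR, beside 2149 of the 16606 genes. Ctss, the protease that removes the last of the invariant chain in B cells, averaged 257 ± 25.1 CPM in RH HOMO, 222 ± 26.6 in RH HET and 187 ± 19.4 in RH cohort WT, and rose by 0.46 ± 0.11 in RH HOMO (SE, edgeR's adjusted p = 0.0423). Ctsb, another endosomal protease, rose by 0.44 ± 0.09 (adjusted p = 0.0232). Ifi30, which was not called, averaged 217 ± 27.4 CPM in RH HOMO and 156 ± 21.5 in RH cohort WT. Lgmn, the 1 of the 6 with a difference below 0, averaged 209 ± 17.6 CPM in RH HOMO and 247 ± 14.4 in RH cohort WT, also without a call. By edgeR 0 of the 5 loading, 8 transcription and 3 turnover genes passed in RH HOMO, 1 of them with an unadjusted p under 0.05, and 0 of the 22 in RH HET, 3 of them with an unadjusted p under 0.05, beside 1192 of the 16606 genes. The 2 calls were 0 in a fit of the compared libraries alone and when RH cohort WT 1 was counted in the knockout cohort as its tag has it. They were also 0 without RH HOMO 1, without RH cohort WT 2, or without the pair of libraries that stood apart, and 1 without RH HOMO 2, RH HOMO 3 or RH cohort WT 1. DESeq2 and edgeR with no filter each called 3 pathway genes higher, and limma-voom 4 higher and 1 lower. Mitochondrial genes took 4.59%, 5.28% and 4.32% of reads in RH HOMO libraries, against 7.34%, 7.15% and 4.72% in RH cohort WT libraries, and the part of this share was not tested. Macrophages also make both proteases, and the 8 macrophage markers summed to 8.97 to 19.2 CPM in RH HOMO, against 8.52 to 10.8 CPM in RH cohort WT, with 0 of the 6 tested called by edgeR and 1 of them at an unadjusted p under 0.05. The 6 T cell markers summed to 1.48 to 2.86 CPM in RH HOMO, against 0.637 to 1.21 CPM in RH cohort WT. Most of that rise was Thy1, which averaged 1.32 CPM in RH HOMO and 0.30 CPM in RH cohort WT. Of the 3 T cell markers tested, 2 had differences above 0 and 1, Cd4, below. The part of either cell type in the protease result was not tested.

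**Figure D5:**
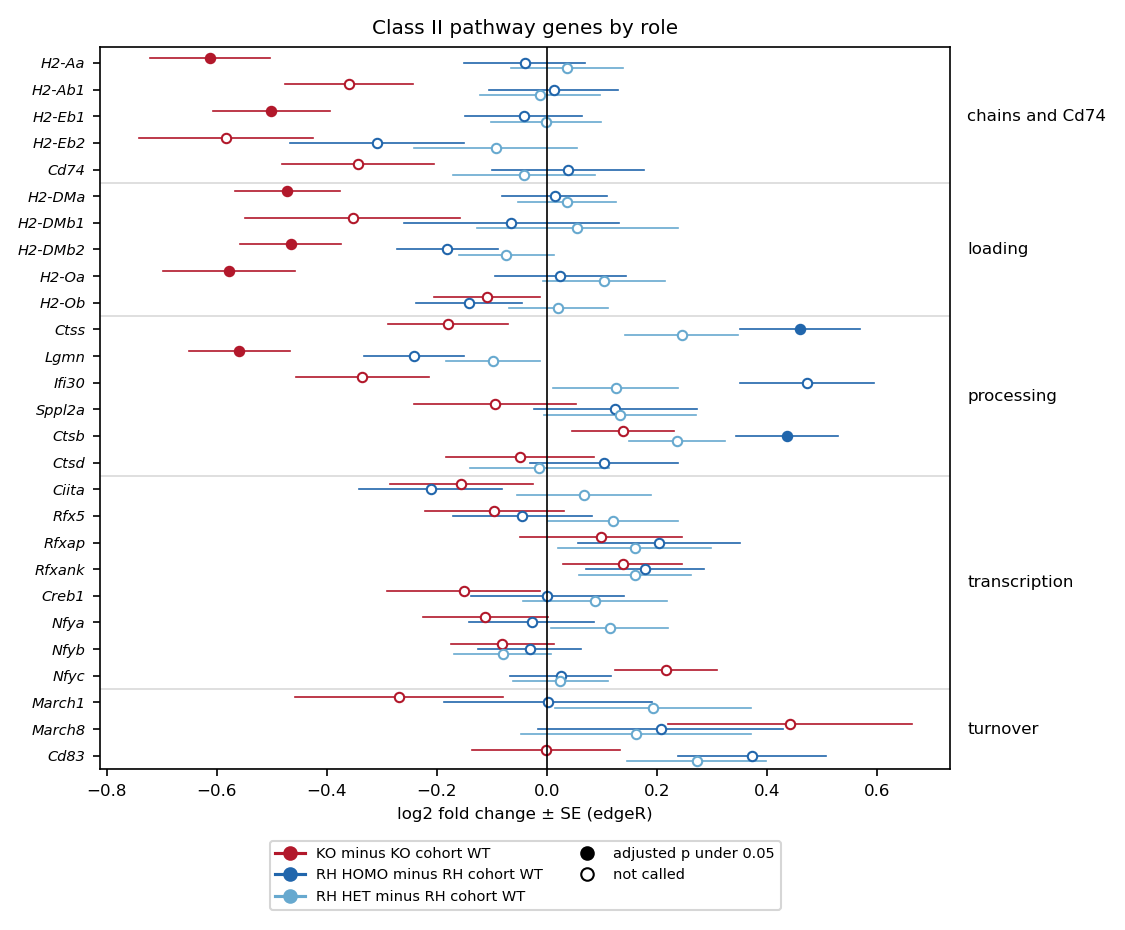
Log2 fold changes ± SE (x axis) of the chains, Cd74 and the loading, processing, transcription and turnover genes (y axis) in KO, RH HOMO and RH HET against the wild type of the same cohort, filled where edgeR's adjusted p was under 0.05. In KO the filled points are H2-Aa, H2-Eb1, H2-DMa, H2-DMb2, H2-Oa and Lgmn, and in RH HOMO Ctss and Ctsb.

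Markers of dendritic cells and macrophages left few reads. Of 8 dendritic cell markers 5 had enough reads to be tested and 1 was called lower in KO, where 0.729% of all genes were. It was Flt3, a cytokine receptor, with 36.1, 38.5 and 34.2 CPM in KO libraries, against 56.5, 52.7 and 45.3 CPM in KO cohort WT libraries. The summed markers reached 35.3 to 39.1 CPM in KO libraries, against 47.0 to 58.0 in KO cohort WT libraries, and this sum was nearly all Flt3. Batf3 was at 0 in all 6 libraries, and Itgax stood at 0.27 to 0.52 CPM in KO, against 0.13 to 0.87 in KO cohort WT. Macrophage markers summed to 5.90 to 7.82 CPM in KO, against 4.33 to 8.42 in KO cohort WT, and germinal centre B cell markers to 5942 to 6550 CPM in KO, against 6397 to 7043 CPM in KO cohort WT. Plasma cell markers summed to 567 to 586 CPM in KO, against 646 to 676 in KO cohort WT, without overlap. That sum was mostly Jchain, which averaged 400 ± 11 CPM in KO and 489 ± 17.6 in KO cohort WT, while 3 of the 5 plasma cell markers had differences above 0, Sdc1 being higher in every KO library, and the list's median was 0.02. T cell markers summed to 0.753 to 1.60 CPM in KO, against 0.719 to 0.762 CPM in KO cohort WT. The 8 naive B cell markers summed to 668 to 826 CPM in KO, against 762 to 859 CPM in KO cohort WT. Of these markers 5 had differences above 0 and 3 below, with 0 called by edgeR. At an unadjusted p under 0.05 by edgeR there were 6 of the 8, beside 2012 of the 16606 genes. The part of these cell types in the class II result was not tested.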

How the data were processed

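The authors deposited 1 table of raw read counts, with gene symbols as names and 16 libraries as columns, made with CASAVA 1.8, HISAT2, featureCounts and the mm10 build per the submitters' processing notes. The annotation, the strand setting and the handling of reads that map to several places are not stated there, and the TruSeq v2 kit named in the labels' protocols does not mark strand. No exon of the 4 chain genes overlaps another gene in GENCODE M21, which held 48069 of the 48593 symbols, and Cd74 overlaps Mir5107. Of the 50-base stretches of H2-Aa transcripts 0.514% also occur in other genes, and 0 of those of the other chain genes or Cd74.

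Groups were read from sample titles. Counts were fitted in R 4.3.3 with edgeR 4.0.16 (filterByExpr, TMM, 5 group means, glmQLFit and glmQLFTest, 11 residual degrees of freedom), with Benjamini-Hochberg adjustment over 16606 genes and calls at an adjusted p under 0.05. Adjusted p values in the text come from this fit unless another tool is named, and SE is the log2 fold change over the square root of F. Ratios within a library were compared by exact permutation tests. Alternatives were DESeq2 1.42.0 and its size factors, limma 3.58.1 voom with quality weights, no filter, no immunoglobulin or T cell receptor genes, fits of the compared libraries alone, the other cohort for RH cohort WT 1, leaving out each library, and principal transcript lengths, added after seeing the data. The fit was tested on simulated counts. Counts of replicates differed beyond sampling noise (chi-square per degree of freedom 16.4 to 205). The members, lists and tests were chosen with earlier results of these data known. Named genes are the 5 members, every called gene of the pathway lists, the gene with the smallest p in a list without a call, Ciita, and the 5 genes most correlated with H2-Aa and with Cd74. Outside that rule H2-DMb1, H2-Ob, Ifi30, Creb1, H2-Ea-ps, Crebbp and some of the cell type markers are also named. Promoter sequences are from RefSeq (GRCm38.p6).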

Additional observations from a re-analysis of the deposited data

Results flagged for a closer look

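H2-Eb2 stood at 94.7 CPM in RH HET 2, below the other RH HET libraries, whose values were 141.5, 135.0 and 138.9 CPM. The gap to the nearest of them was 0.86 of the group's whole range, above Dixon's 95% critical value for 4 values. Of 8 sets of 4 values compared in this way 1 was beyond that value, and chance alone puts about 1 in 20 there. RH HET 2 also had the largest ribosomal protein and mitochondrial shares of its group, 6.57% and 5.84%, and their part in the low value was not tested. Without that library the RH HET difference of H2-Eb2 was 0.04, against -0.09 with it.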

How the results depend on the processing

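H2-Aa and H2-Eb1 stayed lower in KO and called under each of the 8 alternatives that kept all 6 libraries compared. The number of the 5 genes called lower in KO was 2, and it was 4 with DESeq2, 4 with limma-voom, 3 with no filter, with the compared libraries alone and with RH cohort WT 1 and RH HOMO 2 left out (each adding H2-Eb2), and 0 to 2 when each library was left out in turn. Setting the RH HOMO effect against that of KO, 1 gene was called higher with DESeq2 and 2 with limma-voom. For the RH HET effect against that of KO, 2 were called higher with DESeq2, 3 with limma-voom and 0 to 1 with each library left out, the 1 arising without RH cohort WT 3. All 25 group levels moved by less than 1 SD with CPM on the total count. Over all genes, the 121 called lower in KO became 112 to 467 under alternatives that kept the libraries compared and 18 to 47 with each left out, and the 165 called lower in RH HOMO became 0 to 585 and 81 to 157. The cause of these shifts was not tested.

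The results that changed sign were RH differences near 0, none of them called. For RH HET minus RH cohort WT, no filter gave 0.00188 for H2-Ab1 and 0.0114 for H2-Eb1, and limma-voom 0.0142, 0.0503, 0.0129 and 0.0298 for H2-Ab1, H2-Eb1, H2-Eb2 and Cd74. Moving RH cohort WT 1 to the knockout cohort gave -0.00322, 0.0425 and 0.0457 for H2-Aa, H2-Ab1 and Cd74, and leaving it out with RH HOMO 2 gave 0.0501 and 0.0529 for H2-Ab1 and Cd74. H2-Eb1 was at 0.00722 without immunoglobulin and T cell receptor genes and at 0.00746 in a fit of the compared libraries alone. For RH HOMO minus RH cohort WT, limma-voom gave 0.0128 for H2-Aa and -0.0222 for H2-Ab1, and leaving both libraries out -0.0674 for H2-Ab1 and -0.0218 for Cd74. For RH HOMO minus RH HET, limma-voom gave -0.0363 for H2-Ab1 and -0.0216 for Cd74, and leaving both out -0.12 and -0.0748.

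With each library left out in turn, RH HET minus RH cohort WT ranged over -0.0112 to 0.15 for H2-Aa, -0.0397 to 0.0503 for H2-Ab1, -0.0348 to 0.0586 for H2-Eb1, -0.16 to 0.0438 for H2-Eb2 and -0.11 to 0.0531 for Cd74. RH HOMO minus RH cohort WT ranged over -0.10 to 0.0577 for H2-Aa, -0.12 to 0.11 for H2-Ab1, -0.15 to 0.00493 for H2-Eb1, -0.47 to -0.16 for H2-Eb2 and -0.11 to 0.12 for Cd74, and RH HOMO minus RH HET over -0.12 to 0.11 for H2-Ab1 and -0.0751 to 0.14 for Cd74. The log2 ratio of H2-Aa to H2-Ab1 ranged over -0.15 to 0.0964 in RH HOMO and -0.0418 to 0.17 in RH HET, that of H2-Eb1 to H2-Ab1 over -0.11 to 0.0243 and -0.0482 to 0.0842, and that of Cd74 to the chain genes over -0.0786 to 0.0384 in RH HET.

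No paired analysis was possible because the labels give no replicate numbers and the numbers used here only name libraries. Groups of 3 or 4 libraries limit the precision more than depth does, since even H2-Eb2 rested on at least 4642 reads a library.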

Other observations

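Of the cell identity markers, 1 of 10 for germinal centre B cells, 1 of 8 for naive B cells and 1 of the 3 tested for T cells were called in RH HOMO, where 1.57% of all genes were. Mef2b, a transcription factor of germinal centre B cells, was lower by 0.57 ± 0.11 on the log2 scale against RH cohort WT (edgeR's adjusted p = 0.0143). Gpr183, a receptor that guides B cells towards the outer follicle, was higher by 0.92 ± 0.22 (edgeR's adjusted p = 0.0443), within a naive list that ran from -0.47 to 0.92 with 3 of 8 below 0. Thy1, found on T cells, rose by 2.16 ± 0.48 (edgeR's adjusted p = 0.0282), while Cd4 was at -0.95 without passing the test. The level of Thy1 was low, with a mean of 1.32 CPM in RH HOMO and 0.30 CPM in RH cohort WT. Mef2b was the 1 gene of the cell type lists whose RH HOMO effect differed from its KO effect, by -0.82 ± 0.16 (edgeR's adjusted p = 0.0408).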
